A study of Mus musculus with 16 samples.

Results

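The class II major histocompatibility complex (MHC) genes were followed in CD4+ and CD8+ tumor-infiltrating lymphocytes (TILs) from subcutaneous B16F10 tumors, a transplanted mouse melanoma line. The 10 genes were picked by name from the 55450 gene rows of the count table. They are the classical chains H2-Aa, H2-Ab1 and H2-Eb1, the peptide-loading chains H2-DMa, H2-DMb1 and H2-DMb2, the H2-O chains H2-Oa and H2-Ob, the invariant chain gene Cd74, and Ciita. The host mice were WT or Sirt2-/- (B6.129-Sirt2tm1.1Fwa/J, lacking the deacetylase SIRT2 in the whole animal), used at 7 to 8 weeks of age per the methods. Each of the 4 groups, WT CD4+, Sirt2-/- CD4+, WT CD8+ and Sirt2-/- CD8+ TILs, held 4 libraries, 16 in all. TILs were freed from the tumor with collagenase and DNase, enriched on Percoll and purified with CD3e beads per the methods for tumor lymphocytes, and how CD4+ and CD8+ cells were then parted for sequencing is not given in the sources used here. The methods give n = 4 per group for TILs from WT and Sirt2-/- mice. Neither they nor the labels say whether each library was 1 mouse or whether CD4+ and CD8+ libraries shared mice. The p-values therefore measure only the spread between these libraries, which may be technical. In these bulk samples, fewer cells of a type and less RNA per cell cannot be told apart.

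Class II molecules present peptides taken from endocytosed protein to CD4+ T cells. The α and β chains assemble on the invariant chain, which is trimmed in endosomes, and H2-DM then exchanges the remaining fragment for peptide while H2-O restrains H2-DM. The genes are switched on together by CIITA, a co-activator that does not bind DNA itself but docks on factors (RFX, CREB and NF-Y) bound at the X and Y boxes of class II promoters, and interferon-γ induces Ciita in many cell types. Dendritic cells, B cells and macrophages are the usual class II expressing cells, whereas resting mouse T cells are known for little class II transcription.

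Per the GENCODE M21 annotation (GRCm38), 8 of the 10 genes lay within the MHC on chromosome 17. On the plus strand stood H2-Oa (ENSMUSG00000024334.9, chr17:34092340-34095234), H2-DMa (ENSMUSG00000037649.10, chr17:34119541-34139101), H2-DMb2 (ENSMUSG00000037548.15, chr17:34143307-34151555) and H2-DMb1 (ENSMUSG00000079547.4, chr17:34153072-34160230). Further along the same strand came H2-Ob (ENSMUSG00000041538.16, chr17:34238903-34254414), H2-Ab1 (ENSMUSG00000073421.6, chr17:34257689-34269419) and H2-Eb1 (ENSMUSG00000060586.11, chr17:34305867-34316674). H2-Aa (ENSMUSG00000036594.15, chr17:34282744-34287823) was on the minus strand. Ciita (ENSMUSG00000022504.10) was on the plus strand at chr16:10480059-10528418.

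Stretches of the class II promoters are shown because the X and Y boxes described above lie there. RefSeq promoters of 300 bases (250 before to 50 after the start, build GRCm38.p6) were found for 7 of the 10 genes, and H2-Ab1, Cd74 and Ciita had no entry. The Y box was searched as TGATTGG and the X box end as AACNNATG on both strands. Both strings were settled on after looking at these promoters. Capitals mark the matches, and each line runs 5′ to 3′ on the gene's own strand.
H2-Eb1 (plus strand, chr17:34305761-34305820): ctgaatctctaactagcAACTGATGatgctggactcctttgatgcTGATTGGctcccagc
H2-DMb1 (plus strand, chr17:34153083-34153142): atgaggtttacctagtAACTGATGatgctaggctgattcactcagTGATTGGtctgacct
H2-DMb2 (plus strand, chr17:34145112-34145171): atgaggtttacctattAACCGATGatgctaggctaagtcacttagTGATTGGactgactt
H2-Ob (plus strand, chr17:34238801-34238860): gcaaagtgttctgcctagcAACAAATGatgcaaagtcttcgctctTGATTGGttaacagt
H2-Aa (minus strand, chr17:34287859-34287918): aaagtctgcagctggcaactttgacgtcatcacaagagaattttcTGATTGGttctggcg
H2-Oa (plus strand, chr17:34092289-34092348): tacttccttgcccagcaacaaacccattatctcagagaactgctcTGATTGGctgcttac

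The Y box letters stood once in each of these 6 promoters, 45 to 92 bases before the start, and were in 7.82% of all 32851 promoters of this length. In H2-Eb1, H2-DMb1, H2-DMb2 and H2-Ob the X box letters lay 26 to 29 bases before the Y box letters. X box letters alone were in 8.86% of all promoters. Both in this order on one strand, 15 to 40 bases apart, were in 15 promoters (0.0457%), of which 4 belonged to the class II genes listed here and another to H2-Eb2, a further class II chain. The H2-Aa and H2-Oa stretches matched only the Y box letters, and the 2 H2-DMa entries matched neither. A match in letters is a description and not a bound site.

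Sequencing depth was 28000949 to 62407851 counts per library, and Sirt2 was at 32.8 to 73.5 CPM (counts scaled to a common library size) in the 8 WT libraries against 0 to 12.4 CPM in the 8 Sirt2-/- libraries. The lineage markers followed the labels. Cd4 was at 383 to 622 CPM in CD4+ TILs and 0 to 4.93 CPM in CD8+ TILs, and Cd8a at 957 to 1281 CPM in CD8+ TILs and 0.0323 to 33.6 CPM in CD4+ TILs. Few genes were detected in Sirt2-/- CD4+ replicate 4 (8169), WT CD4+ replicate 1 (12587) and WT CD8+ replicate 1 (14411), while the other 13 libraries held 17730 to 22138. Genes of moderate abundance (100 to 300 counts on average) were at 0 for 77.8%, 29.2% and 8.24% of cases there, against at most 1.44% in any other library. Of the 10 class II genes, these libraries detected 2, 7 and 5 in the same order, compared with 9 or 10 elsewhere. A 0 there is given as a value of the library. Medians over the class II genes are given also without these libraries, while single genes are so given only in part.

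Cd74 (ENSMUSG00000024610.15) lay outside the MHC, on the plus strand of chromosome 18 from 60803848 to 60812652, and was the most abundant class II gene per length in every group by its median. On the scale of CPM per kilobase of exon, its median was 20.8 in WT CD4+, 24.8 in Sirt2-/- CD4+, 4.46 in WT CD8+ and 7.80 in Sirt2-/- CD8+ TILs. H2-DMa followed in each group by its median, at 3.41, 3.26, 3.65 and 6.39 CPM per kilobase in the same order. Its range in WT CD4+ TILs (1.45 to 3.76) overlapped that of H2-Ob (2.07 to 5.73), so their order there was not resolved. All annotated exon bases were counted, 3448 for H2-DMa and 5380 for H2-Ob, while their longest coding transcripts held 2005 and 2670. The order of genes close in level therefore depends on the length used. In WT CD4+ TILs the Cd74 libraries (14.1 to 29.8) lay wholly above those of H2-DMa (1.45 to 3.76), but in WT CD8+ TILs the 2 ranges overlapped (1.85 to 5.68 against 2.999 to 4.05). H2-Ob (2.99), H2-Ab1 (1.54), H2-Eb1 (1.498) and H2-Oa (1.48) came next in WT CD4+ TILs by their medians in CPM per kilobase. The ranges of H2-Ob (2.07 to 5.73) and H2-Ab1 (1.12 to 1.97) did not overlap, while those of H2-Ab1, H2-Eb1 and H2-Oa did, and the order of these 3 was not resolved. H2-DMb2 (0.739) and H2-Aa (0.284) were lower there. Ciita, H2-DMb1 and, in WT CD8+ TILs, H2-DMb2 were lowest, with Ciita at medians of 0.0894 to 0.219 CPM per kilobase over the 4 groups.

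**Figure D1:**
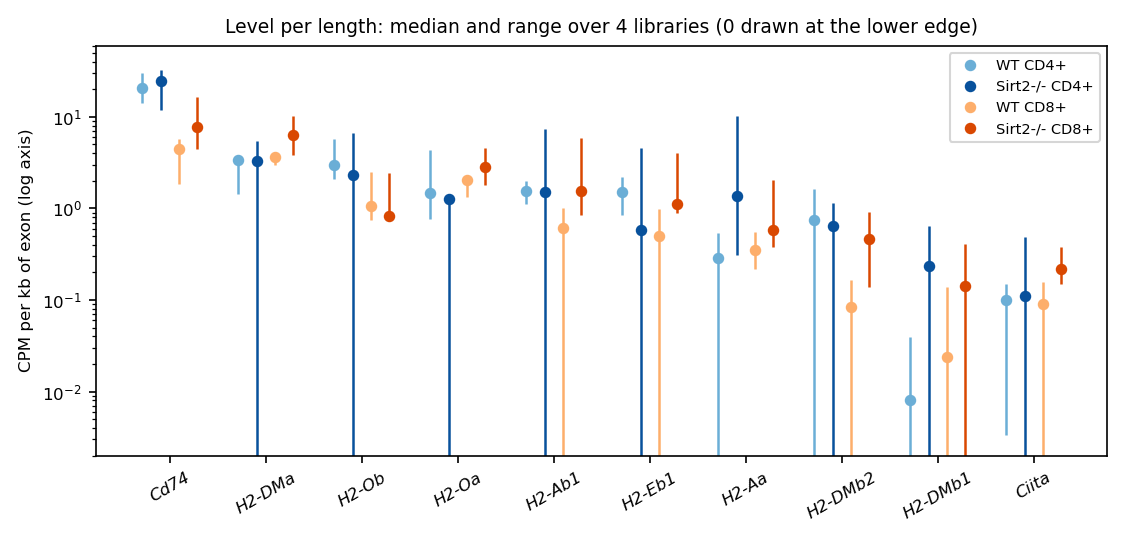
Level of each class II MHC gene on a log axis of CPM per kilobase of annotated exon, with the median (point) and range (line) over the 4 libraries of each group. Cd74 and H2-DMa stand at the top of all 4 groups by their medians, and lines that reach the lower edge belong to groups with a library at 0.

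The first question was whether loss of SIRT2 changed class II transcripts in CD8+ TILs. No class II gene passed the edgeR quasi-likelihood test at an adjusted p of 0.05 among the 9 tested (H2-DMb1 was too low), beside 1 of 15302 genes called in this comparison (0.00654%). The 9 genes leaned one way in size, with 8 of 9 higher in Sirt2-/- libraries and a median log2 fold change of 1.27, against a median of 0.01 over all genes tested. At an unadjusted p under 0.05, 4 of them were higher (H2-Ab1, H2-DMa, H2-DMb2 and Cd74) and none lower, each with an adjusted p of 0.986. Of all 15302 genes tested, 334 were higher and 245 lower at that unadjusted p. DESeq2 and limma-voom also called 0 of the class II genes, and 28 and 4 genes in all.

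The classical chains were low throughout the WT CD8+ libraries, and their RNA does not show a heterodimer at the cell surface. H2-Ab1, the β chain of I-A, was at 0, 1.97, 1.201 and 2.57 CPM in WT CD8+ replicates 1 to 4, and at 2.17, 4.51, 3.42 and 15.1 CPM in the Sirt2-/- CD8+ libraries. The groups overlapped at 1 library, and Sirt2-/- replicate 4 stood far above the rest. The log2 fold change was 2.16 (SE 0.97, unadjusted p = 0.0476). H2-Aa, the α chain of I-A, was at 2.11, 1.11, 0.828 and 1.53 CPM in WT and 1.66, 1.45, 2.76 and 7.81 CPM in Sirt2-/- libraries, with a log2 fold change of 1.27 (SE 0.62). H2-Eb1, the β chain of I-E, was at 0, 0.675, 1.25 and 1.93 CPM in WT and 1.72, 1.87, 2.43 and 7.81 CPM in Sirt2-/- libraries, a difference of 1.85 (SE 0.98). Again 1 library, Sirt2-/- CD8+ replicate 4, held the highest value of both genes. The count of 0 in WT CD8+ replicate 1 allows a level of up to 0.0856 CPM by counting error only (3 counts). In that library 8.24% of genes of moderate abundance had no count, so the level may be higher.

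Cd74 chaperones the class II chains to endosomes. It was at 3.11, 8.70, 9.53 and 6.29 CPM in WT CD8+ and 7.38, 12.4, 13.8 and 27.9 CPM in Sirt2-/- CD8+ TILs, that is 6.91 ± 2.88 against 15.4 ± 8.79 CPM (SD, n = 4). Its log2 fold change was 1.16 (SE 0.42, unadjusted p = 0.0191). H2-DMa, one chain of the peptide exchanger, was at 13.01, 10.3, 12.2 and 14.0 CPM in WT and 30.6, 13.3, 13.5 and 35.0 CPM in Sirt2-/- libraries. Sirt2-/- replicates 2 and 3 were within the WT range and replicates 1 and 4 were above it, giving a log2 fold change of 0.89 (SE 0.32, unadjusted p = 0.0176). H2-DMb2, a β chain that pairs with H2-DMa, was near the floor in WT libraries (0, 0.162, 0.134 and 0.288 CPM, or 0, 6, 5 and 10 counts). It reached 1.17, 0.242, 0.453 and 1.61 CPM in Sirt2-/- libraries, for a log2 fold change of 2.56 (SE 1.07, unadjusted p = 0.0352).

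Ciita itself was at 0, 0.810, 1.49 and 0.894 CPM in WT CD8+ and 2.50, 3.61, 1.44 and 1.67 CPM in Sirt2-/- CD8+ TILs. Sirt2-/- replicates 1, 2 and 4 lay above every WT library, and the log2 fold change was 1.53 (SE 0.94, unadjusted p = 0.13). The H2-O chains restrain H2-DM. H2-Oa was at 1.86, 2.997, 2.72 and 3.20 CPM in WT and 4.14, 6.42, 3.83 and 2.54 CPM in Sirt2-/- libraries (log2 fold change 0.65, SE 0.39), with Sirt2-/- replicates 1, 2 and 3 above every WT library. H2-Ob was at 13.4, 6.10, 4.03 and 5.42 CPM in WT and 13.04, 4.31, 4.65 and 4.31 CPM in Sirt2-/- libraries (log2 fold change -0.18, SE 0.48). The H2-Ob values overlapped almost fully, with 1 high library in each group. For none of the 9 tested genes did all 4 Sirt2-/- libraries lie above all 4 WT libraries, a pattern that 1.72% of all genes tested in this comparison showed.

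**Figure D2:**
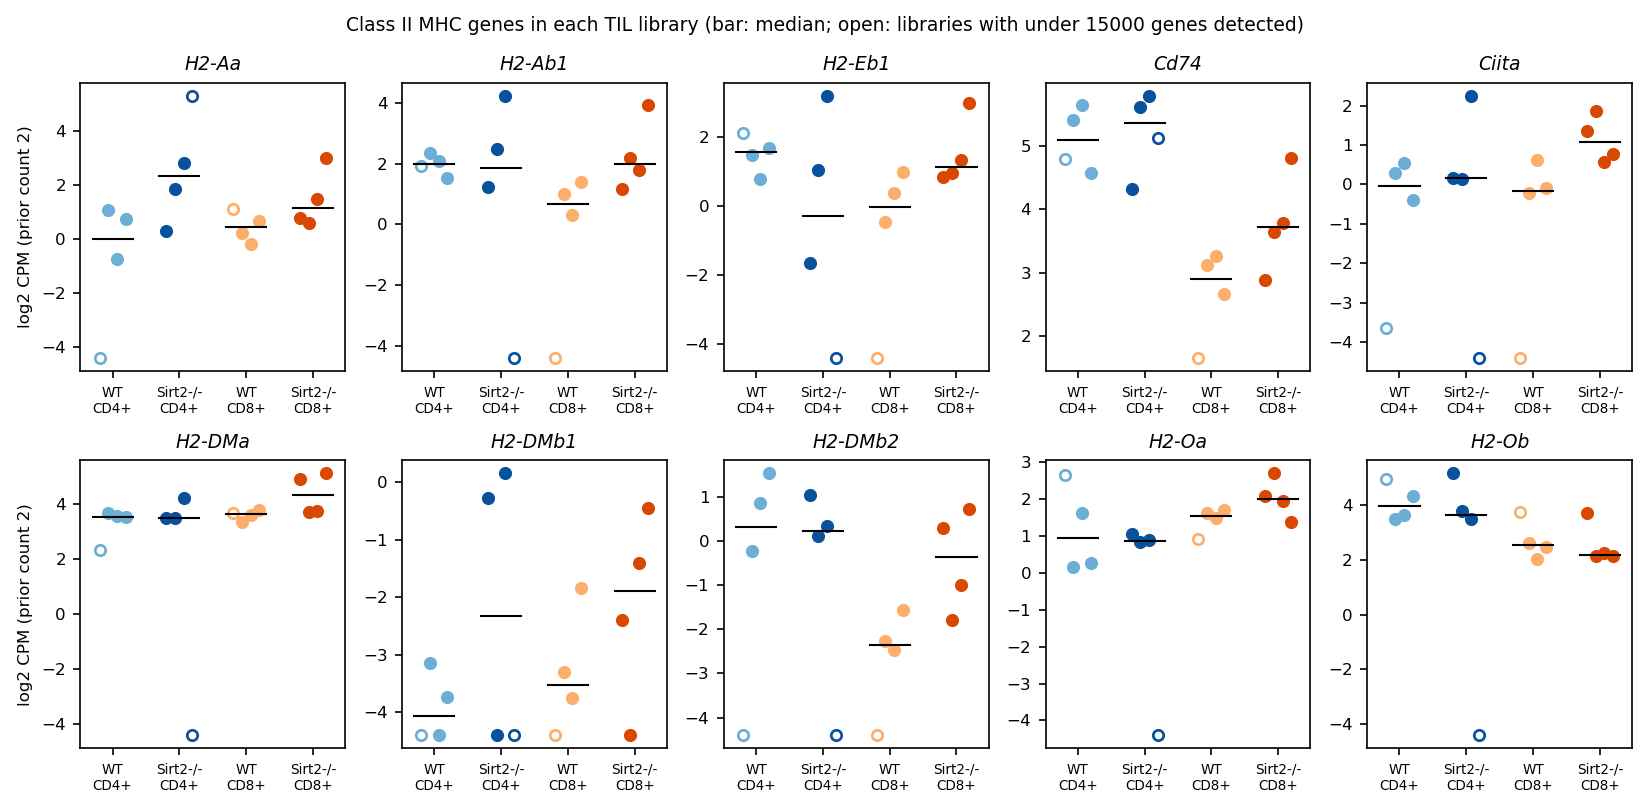
Log2 CPM (prior count 2) of the 10 class II MHC genes in each of the 16 libraries, grouped by genotype and cell type, with a bar at the group median and open points for the 3 libraries with under 15000 genes detected. Sirt2-/- CD8+ replicate 4 and Sirt2-/- CD4+ replicate 3 hold high values of H2-Ab1 and H2-Eb1, and Cd74 is lower in the WT CD8+ than in the WT CD4+ libraries.

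One library carried much of the size of these differences. Without Sirt2-/- CD8+ replicate 4, the median log2 fold change of the 9 genes was 0.83, with 8 of 9 higher, and H2-Ab1, H2-Aa and Cd74 were at 1.25 (SE 1.03), 0.46 (SE 0.61) and 0.69 (SE 0.38). Over the 8 fits that left out 1 library each, the median ran from 0.83 to 1.51. Without WT CD8+ replicate 1, the median was 1.12 and all 9 genes were higher, with H2-Ab1 at 1.75 (SE 0.67) and Ciita at 1.12 (SE 0.46). None was called in any of these fits.

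Macrophage markers moved the same way in CD8+ TILs. The summed level of 14 macrophage and monocyte genes was 10.7 to 15.7 CPM in WT and 16.6 to 59.3 CPM in Sirt2-/- CD8+ libraries, without overlap, and the highest value was again that of Sirt2-/- CD8+ replicate 4. All 11 of those genes that were tested were higher, at a median log2 fold change of 2.36, and 0 were called. At an unadjusted p under 0.05 were 5 of them, beside 334 higher of all 15302 genes tested. Lyz2, a macrophage and neutrophil lysozyme, was at 0.187 to 2.02 CPM in WT and 0.963 to 7.65 CPM in Sirt2-/- libraries. Csf1r, the receptor for macrophage colony-stimulating factor, reached 0.577 CPM in WT and 5.26 CPM in Sirt2-/- libraries, and C1qa, a complement chain made by macrophages, 0.461 and 2.34 CPM. The most abundant gene of the list, Apoe, is also made outside macrophages. With the summed macrophage level as a covariate, the median log2 fold change of the 9 class II genes was 0.62, all 9 were higher, H2-Ab1 was at 0.51 (SE 1.15), H2-Aa at 0.16 (SE 0.71), Cd74 at 0.38 (SE 0.51), H2-DMb2 at 2.16 (SE 1.37) and Ciita at 1.70 (SE 1.41). Because the summed macrophage level did not overlap between genotypes, this covariate and the genotype cannot be told apart in such a fit. The part of macrophage RNA in the class II differences was not tested.

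Markers of the other class II expressing cell types were measured as well. Of 11 dendritic cell genes, Clec9a, Cd209a and Cd207 had 0 counts in all 16 libraries, Siglech had 1 count in 1 library, and Xcr1 had at most 50 counts in any library. Their summed level, mostly Zbtb46, was 4.78 to 8.96 CPM in WT and 4.16 to 6.69 CPM in Sirt2-/- CD8+ TILs. Among 12 B cell genes, Ms4a1 was at 0 to 2.25 CPM and Cd79a at 0 to 5.79 CPM over the 16 libraries. The summed B cell level was 54.6 to 76.9 CPM in WT and 46.3 to 72.2 CPM in Sirt2-/- CD8+ TILs, and Ighm, which T cells also transcribe, made up most of it. The summed melanoma level of 9 genes was 3.94 to 11.02 CPM in WT and 7.75 to 16.2 CPM in Sirt2-/- CD8+ TILs, and Mlana was at 0 to 0.107 and 0.165 to 0.806 CPM. Cd3e, a T cell receptor subunit, was at 524 to 543 and 514 to 640 CPM in WT and Sirt2-/- CD8+ TILs, and 10 T cell genes had a median log2 fold change of 0.08. The 6 endothelial genes were led by Pecam1, which T cells also express, and the other 5 were at low counts, with at most 87 for Cdh5 and 48 for Kdr, both in Sirt2-/- CD8+ replicate 4. That library was the only one of the 16 in which all 6 endothelial genes were detected, and their part in the class II differences was not tested.

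Upstream of the class II genes, genes of the interferon-γ route and the promoter factors were measured in CD8+ TILs. Of 8 genes of the route to Ciita, 6 were higher in Sirt2-/- libraries, 0 were called, and the median log2 fold change was 0.51. At an unadjusted p under 0.05 were 5 of the higher genes, beside 334 higher of all 15302 genes tested. Ifngr2, a chain of the interferon-γ receptor chosen here after its values were seen, was at 5.14, 6.35, 7.53 and 9.46 CPM in WT and 33.4, 12.2, 11.5 and 12.7 CPM in Sirt2-/- CD8+ libraries. The groups of Ifngr2 did not overlap, as for 1.72% of all genes tested, which were higher without overlap in this comparison. Its log2 fold change was 1.28 (SE 0.35, adjusted p = 0.986). Jak1, the kinase that transmits the signal and the most abundant gene of the route, was at -0.07 (SE 0.10). The 7 promoter factors (RFX, NF-Y and CREB subunits) had a median of 0.06, with 4 higher, 3 lower and 0 called. Creb1, the most abundant of them, was at 139 to 150 CPM in WT and 136 to 151 CPM in Sirt2-/- CD8+ TILs. Of the 8 genes of antigen processing and class II turnover, 7 were tested and 0 called, at a median of 0.31.

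In CD4+ TILs the same comparison gave no common direction. No class II gene was called among the 9 tested, in a comparison in which no gene at all was called (0 of 15070, 0%), and none was at an unadjusted p under 0.05. DESeq2 and limma-voom called 0 of the class II genes and 7 and 4 genes in all. Of the 9 genes, 4 were higher and 5 lower in Sirt2-/- libraries, with a median log2 fold change of -0.01 against -0.11 for all genes tested. Standard errors were wide, between 1.40 and 1.79 on the log2 scale for all but Cd74 (0.42), in a group with a library in which 8 of the 10 genes had no count.

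Cd74 was at 27.6, 42.2, 50 and 23.7 CPM in WT CD4+ and 20.01, 48.7, 54.9 and 34.6 CPM in Sirt2-/- CD4+ TILs. These ranges overlapped nearly completely, at 35.9 ± 12.3 and 39.6 ± 15.6 CPM (SD, n = 4) and a log2 fold change of 0.14 (95% interval -0.79 to 1.06). H2-Ab1 was at 3.75, 5.07, 4.16 and 2.87 CPM in WT and 2.29, 5.52, 18.7 and 0 CPM in Sirt2-/- libraries, so that the Sirt2-/- group held both the highest and the lowest value. H2-Eb1 had the same shape, at 4.24, 2.71, 1.66 and 3.12 CPM in WT and 0.269, 2.01, 8.94 and 0 CPM in Sirt2-/- libraries. Their log2 fold changes were 0.74 (SE 1.57) and -0.06 (SE 1.63).

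H2-Aa parted from its partner chain H2-Ab1 in the 3 libraries of under 15000 genes, where one of the pair had no count. H2-Aa was at 0, 2.05, 0.545 and 1.61 CPM in WT CD4+ and 1.19, 3.53, 6.95 and 38.6 CPM in Sirt2-/- CD4+ TILs. The 2162 counts in Sirt2-/- CD4+ replicate 4 came with 0 counts of H2-Ab1 and H2-Eb1 in that library. By counting error alone a 0 there would allow up to 0.0536 CPM. However, 77.8% of genes of moderate abundance had no count in that library, so its 0 does not bound the level. WT CD4+ replicate 1 had 0 counts of H2-Aa beside 116 of H2-Ab1, and WT CD8+ replicate 1 had 74 of H2-Aa beside 0 of H2-Ab1. The log2 fold change of H2-Aa was 3.56 (SE 1.70, unadjusted p = 0.0617) with that library and 1.88 (SE 1.31) without it. With both CD4+ libraries of under 15000 genes left out, it was 1.47 (SE 0.69), and 8 of the 9 class II genes were then higher in Sirt2-/- libraries, at a median of 0.48, with 0 called.

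The remaining class II genes were not resolved between genotypes in CD4+ TILs, with log2 fold changes of -0.01 for H2-DMa, -0.29 for H2-Ob, -1.04 (95% interval -4.43 to 2.35) for H2-Oa, -0.35 for H2-DMb2 and 1.03 (-2.75 to 4.80) for Ciita. H2-DMa was at 5.01, 12.98, 12.02 and 11.5 CPM in WT and 11.3, 11.2, 18.8 and 0 CPM in Sirt2-/- libraries. H2-Ob was at 30.8, 11.2, 12.4 and 19.8 CPM in WT and 35.6, 13.8, 11.1 and 0 CPM in Sirt2-/- libraries. H2-Oa was at 6.17, 1.07, 3.02 and 1.15 CPM in WT and 2.02, 1.74, 1.79 and 0 CPM in Sirt2-/- libraries. In all 3 the lowest value was the 0 of Sirt2-/- replicate 4. H2-DMb2 was at 0 to 2.84 CPM in WT and 0 to 2.02 CPM in Sirt2-/- libraries, and Ciita at 0.0323 to 1.41 and 0 to 4.68 CPM. Summed macrophage markers were at 15.8 to 19.7 CPM in WT and 19.7 to 149 CPM in Sirt2-/- CD4+ TILs. The highest value was that of Sirt2-/- CD4+ replicate 4, of which Apoe made up 138 CPM and in which 11 of the 14 genes had no count. All 9 tested macrophage genes were higher (median 1.33) and 0 were called.

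**Figure D3:**
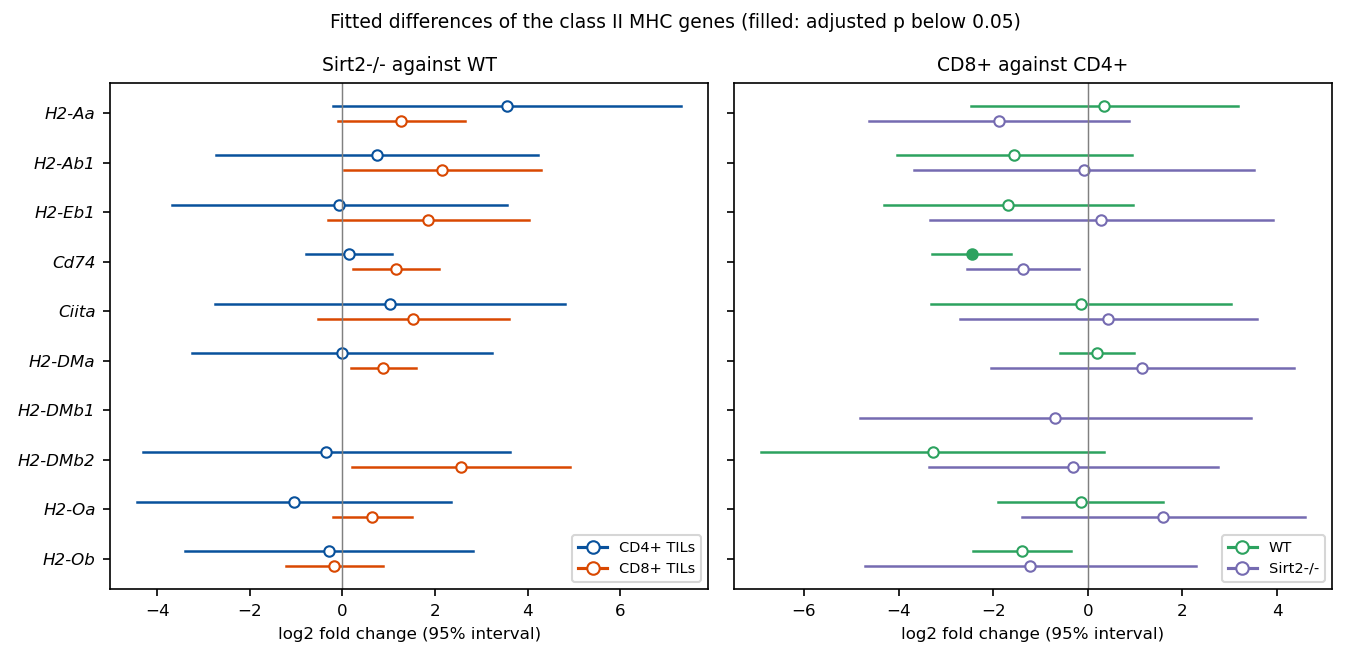
Log2 fold changes of the class II MHC genes with 95% intervals from edgeR, for Sirt2-/- against WT (left) and CD8+ against CD4+ TILs (right), filled where the adjusted p was below 0.05. The only filled point is Cd74 in WT TILs (-2.45), and the CD8+ genotype estimates lie right of 0 for every gene but H2-Ob.

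The genotype effect was then compared between cell types. In the model of all 16 libraries, none of the 10 class II genes differed in its genotype effect between CD8+ and CD4+ TILs, no gene of 17270 was called (0%), and none of the 10 was at an unadjusted p under 0.05. DESeq2 and limma-voom called 0 class II genes, and 2 and 0 genes in all. The estimate was positive (a larger Sirt2-/- difference in CD8+ TILs) for 8 of 10 genes, with a median of 0.96 against 0.14 for all genes. Without the libraries of under 15000 genes the median of the 10 was 0.53, with 8 positive. Cd74 had the narrowest estimate, 1.01 (SE 0.68, 95% interval -0.42 to 2.45). Those of H2-Ab1 (1.42, SE 1.93) and H2-Aa (-2.31, SE 1.67) were wider, so that a genotype effect of CD8+ TILs alone was not resolved.

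The clearest contrast among these genes was between cell types. Cd74 was lower in CD8+ than in CD4+ TILs of WT mice, at 6.91 ± 2.88 against 35.9 ± 12.3 CPM (SD, n = 4), with the highest CD8+ library (9.53 CPM) below the lowest CD4+ library (23.7 CPM). The log2 fold change was -2.45 (SE 0.38, adjusted p = 0.00189), and the adjusted p was between 0.00115 and 0.00892 over the 8 fits that left out 1 library each. It was the only class II gene called of 9 tested, in a comparison in which 11.9% of 14892 genes were called. The 9 genes had a median log2 fold change of -1.39, or -0.96 without the libraries of under 15000 genes. With all libraries, 7 of them were lower in CD8+ TILs, and the median over all genes tested was -0.02. Groups that did not overlap, with CD8+ lower, were found for Cd74 and H2-Ab1, and for 10.2% of all genes tested.

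H2-Ob was at 13.4, 6.10, 4.03 and 5.42 CPM in WT CD8+ and 30.8, 11.2, 12.4 and 19.8 CPM in WT CD4+ TILs. The groups overlapped only through WT CD8+ replicate 1, and the log2 fold change was -1.39 (SE 0.47, adjusted p = 0.0846). With the replicate number as a block the difference was -1.45 (SE 0.30) and was called (adjusted p = 0.0323). It was also called with DESeq2 (adjusted p = 0.0322), limma-voom (adjusted p = 0.000666), and without the libraries of under 15000 genes (adjusted p = 0.0029). H2-DMb2 was at 0, 0.162, 0.134 and 0.288 CPM in CD8+ and 0, 0.809, 1.77 and 2.84 CPM in CD4+ TILs of WT mice. Its log2 fold change of -3.28 (SE 1.65, adjusted p = 0.257) was called without the libraries of under 15000 genes (-3.21, SE 0.81, adjusted p = 0.0131) and with limma-voom (adjusted p = 0.00904). Over all genes, the block called 1619, DESeq2 2651, limma-voom 5481 and the fit without those libraries 4394, against 1765 in the main fit.

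H2-Ab1 was at 0 to 2.57 CPM in CD8+ and 2.87 to 5.07 CPM in CD4+ TILs of WT mice (log2 fold change -1.56, SE 1.13), and H2-Eb1 at 0 to 1.93 and 1.66 to 4.24 CPM (-1.68, SE 1.199). H2-DMa was similar in level in both, at 10.3 to 14.0 and 5.01 to 12.98 CPM, with a log2 fold change of 0.19 (95% interval -0.59 to 0.97). H2-Oa (-0.15, SE 0.79), H2-Aa (0.35, SE 1.28) and Ciita (-0.14, SE 1.44) had estimates near 0 with wide errors. The level of Cd74 in CD8+ TILs was 0.183 of that in CD4+ TILs, while the classical chains were not called.

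Other cell markers also differed between the cell types in WT mice. The summed B cell level was 54.6 to 76.9 CPM in CD8+ and 128 to 237 CPM in CD4+ TILs, with Ighm lower in CD8+ TILs (-1.73, adjusted p = 0.000273), while Ms4a1 was low in both (0.115 to 1.46 and 0 to 0.522 CPM). The summed dendritic cell level was 4.78 to 8.96 against 12.5 to 16.02 CPM, and the macrophage level 10.7 to 15.7 against 15.8 to 19.7 CPM. None of these 3 ranges overlapped between the cell types. The dendritic cell sum was mostly Zbtb46 (3.16 to 7.48 against 10.9 to 14.2 CPM), and the B cell sum mostly Ighm (47.8 to 67.7 against 122 to 229 CPM). Of the tested genes, 1 of 3 dendritic cell and 2 of 5 B cell genes were higher in CD8+ TILs. The dendritic cell and B cell covariates thus follow largely these single genes. With the macrophage, dendritic cell or B cell level as a covariate, Cd74 was at -2.64, -3.03 and -0.74, and no longer called (adjusted p = 0.0681, 0.332 and 0.95). With the same covariates, 206, 35 and 8 genes were called in place of 1765. Their part in the Cd74 difference and the cell type itself cannot be told apart.

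In Sirt2-/- mice the Cd74 difference was smaller in size. Cd74 was at 7.38 to 27.9 CPM in CD8+ and 20.01 to 54.9 CPM in CD4+ TILs, overlapping through Sirt2-/- CD8+ replicate 4, and its log2 fold change was -1.37 (SE 0.52, unadjusted p = 0.0285, adjusted p = 0.311). None of the 10 class II genes was called by edgeR, in a comparison in which 2.24% of 15787 genes were called. DESeq2 called 0 of them and 1339 genes in all. With limma-voom 3 were called (H2-Oa, H2-Ob and Cd74), beside 4474 genes in all. Only Cd74 of the 10 was at an unadjusted p under 0.05, beside 1842 of the 15787 genes tested. H2-Oa was at 4.14, 6.42, 3.83 and 2.54 CPM in CD8+ and 2.02, 1.74, 1.79 and 0 CPM in CD4+ TILs, so that every CD8+ library lay above every CD4+ library, as for 15.4% of all genes tested in this comparison. The log2 fold change of H2-Oa was 1.60 (SE 1.31, adjusted p = 0.84). Without Sirt2-/- CD4+ replicate 4 it was 1.17 and was called (adjusted p = 0.0486), in a fit that called 4250 genes in all. Of the comparisons between groups, H2-DMb1 entered only this one, on 7, 0, 16 and 34 counts in CD8+ and 35, 0, 47 and 0 counts in CD4+ libraries, and in the WT libraries it had at most 8 counts. Its log2 fold change was -0.68 (SE 1.81).

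Genes around the class II pathway differed between cell types as well. In WT mice, 3 of 7 tested genes of antigen processing and turnover and 4 of 8 of the interferon-γ route were called, beside 11.9% of all genes tested. Lgmn, an endosomal protease that cleaves antigens and the invariant chain, was lower in CD8+ TILs (-3.53, adjusted p = 0.00498), at 0.507 to 2.06 against 7.95 to 18.1 CPM. Ctsb, a cysteine protease, was lower (-0.82, adjusted p = 0.0463) and Ctsd, an aspartic protease, was higher (1.04, adjusted p = 0.000413). Of the interferon-γ route, Ifng, the cytokine itself, was higher in CD8+ TILs (1.78, adjusted p = 0.0326), while the receptor chains Ifngr1 (-1.56, adjusted p = 0.00051) and Ifngr2 (-1.71, adjusted p = 0.00835) and the kinase Jak2 (-0.89, adjusted p = 0.000895) were lower. In Sirt2-/- mice, where 2.24% of all genes were called, Ifngr1 (-1.39, adjusted p = 0.0313) and Jak2 (-1.16, adjusted p = 0.00645) were lower and no gene of antigen processing was called. None of the 7 promoter factors was called in either genotype. Outside the 10 genes, the class II chain H2-Eb2 had at most 1.39 CPM in any library. The I-E α chain pseudogene H2-Ea-ps had no count in any, so no α chain partner of H2-Eb1 was detected.

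The class II genes were also compared with each other over the 13 libraries with at least 15000 genes detected. These correlations of log2 CPM are descriptions over libraries of 4 groups, which share their group means, and no test was made. H2-Ab1 followed H2-Aa (r = 0.81) and H2-Eb1 (r = 0.78), and these 2 followed each other (r = 0.74). Cd74 was nearer to H2-Ab1 (r = 0.69) than to H2-Aa (r = 0.37). H2-Ob ran with H2-DMb2 (r = 0.74) and not with the classical chains (r = -0.31 to -0.04), and H2-Oa ran against Cd74 (r = -0.60). Ciita had r = 0.36 to 0.50 with the classical chains. Over all 16 libraries, H2-Aa and H2-Ab1 had r = -0.24, with one of these chains at 0 and the other detected in each of the 3 libraries of under 15000 genes.

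**Figure D4:**
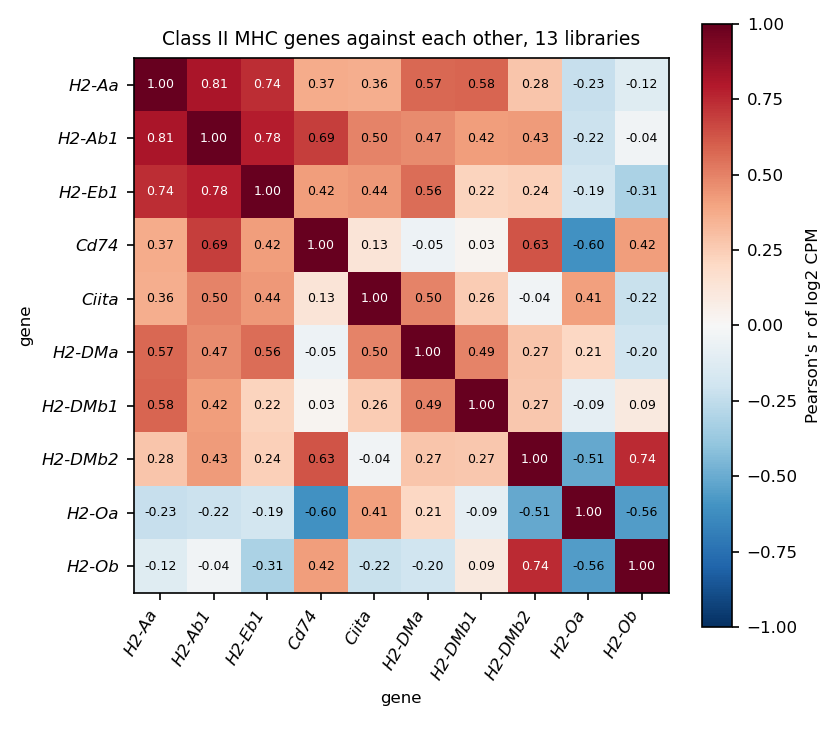
Pearson's r of log2 CPM between the 10 class II MHC genes over the 13 libraries with at least 15000 genes detected, from -1 (blue) to 1 (red). The classical chains H2-Aa, H2-Ab1 and H2-Eb1 form a block of r = 0.74 to 0.81, apart from H2-Oa and H2-Ob.

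By Pearson's r over all 16 libraries and 17270 genes, the genes outside the 10 most like H2-Ab1 were Cxcl16 (r = 0.97), Gm17767 (0.96), Sirpa (0.95), Anxa1 (0.95) and Prnp (0.95), followed by Dab2ip, Dip2c, Tor1aip1, Paqr3 and Cyp4f17 (0.94 to 0.93). Of the class II genes, H2-Eb1 was 7th by this measure (r = 0.94). H2-Ab1 had no count in Sirt2-/- CD4+ replicate 4 and WT CD8+ replicate 1, both libraries of under 15000 genes. The r over 16 libraries therefore also reflects which genes lacked counts there. Over the 13 libraries with at least 15000 genes detected, an alternative added after seeing the data, the leading genes included Frmd4b (r = 0.96), Acod1 (0.94), Myof (0.91), Sirpa (0.91), Csf2rb2 (0.89), Mpeg1 (0.89), Fth1 (0.88), Cxcl16 (0.88) and Slc7a2 (0.87). Sirpa and Cxcl16 were in both lists. H2-Aa then ranked 28th, H2-Eb1 56th and Cd74 178th of 17270 genes.

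H2-Ab1 was set against the summed marker lists within each cell type, over 8 libraries, as 8 relations with p-values adjusted over all 8. Both genotypes were pooled, so r, rho and their p-values also take in differences between the genotypes. In CD8+ TILs the summed macrophage level did not overlap between genotypes, and a relation apart from genotype was not tested. In CD8+ TILs, r with the macrophage list was 0.60 (exact permutation p = 0.13, adjusted p = 0.28) and Spearman's rho was 0.81 (exact permutation p = 0.0218, adjusted p = 0.174). Without the 2 libraries farthest from the list's median, r was 0.21, so the relation rested on those libraries. On CPM in place of log2 CPM, r was 0.95 (exact permutation p = 0.0029, adjusted p = 0.0232), and without WT CD8+ replicate 1 it was 0.95 on log2 CPM (exact permutation p = 0.00218, adjusted p = 0.0175). In CD4+ TILs, r with the macrophage list was -0.61 (exact permutation p = 0.121, adjusted p = 0.28, rho = -0.04 with exact permutation p = 0.946). It turned to 0.85 without the 2 libraries of under 15000 genes (exact permutation p = 0.05, adjusted p = 0.1).

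The largest r in CD4+ TILs was with the B cell list, 0.79 (exact permutation p = 0.0267, adjusted p = 0.214; rho = 0.67, exact permutation p = 0.0831), and it was 0.43 without the 2 libraries farthest from the median. In CD8+ TILs the B cell list gave r = -0.03 (rho = -0.36). The dendritic cell list gave r = 0.35 in CD4+ and -0.54 in CD8+ TILs (rho = 0.36 and -0.43). The melanoma list gave -0.58 and 0.05 (rho = -0.38 and 0.24). None of these other relations had an exact permutation p under 0.05 for r or for rho over the 8 libraries. Without WT CD8+ replicate 1, however, the CD8+ relations were r = -0.85 for the B cell list (exact permutation p = 0.0276, adjusted p = 0.0735, rho = -0.79) and r = 0.84 for the melanoma list (exact permutation p = 0.0252, adjusted p = 0.0735, rho = 0.61). Within one genotype of one cell type there were 4 libraries, too few for a relation.

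**Figure D5:**
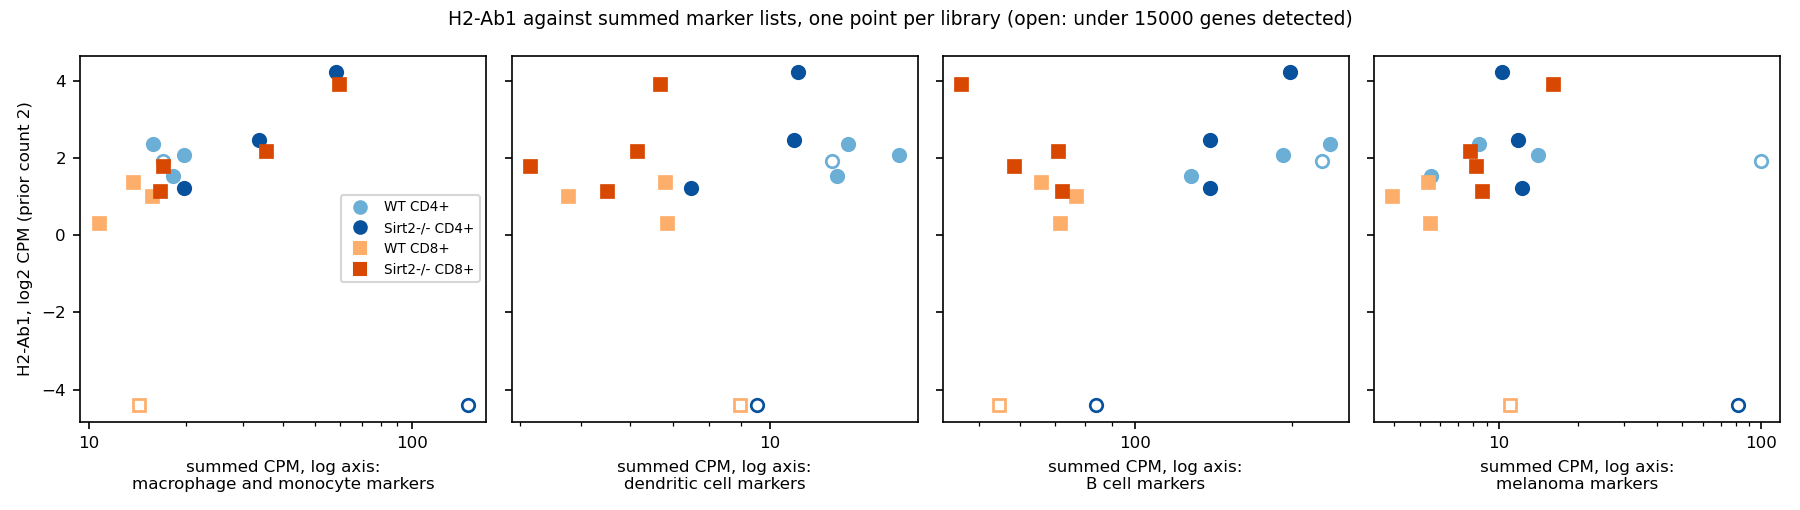
H2-Ab1 in log2 CPM (prior count 2) against the summed CPM (log axis) of macrophage and monocyte, dendritic cell, B cell and melanoma markers, 1 point per library, circles for CD4+ and squares for CD8+ TILs, open for libraries with under 15000 genes detected. Sirt2-/- CD8+ replicate 4 and Sirt2-/- CD4+ replicate 3 are high on both axes of the macrophage panel, and the 2 lowest points are libraries in which H2-Ab1 had no count.

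Some of these genes share sequence or position, which bears on their counts. The longest coding transcripts of H2-DMb1 and H2-DMb2 were 93.7% identical over 1220 aligned bases, and 13.7% of the 100-base windows of H2-DMb1 also occurred in H2-DMb2, so their separate values are uncertain. No such window of the other 8 genes occurred in a transcript of another gene. H2-Oa lay wholly inside the antisense gene BC051537, and H2-DMa overlapped Brd2 on the other strand by 3094 bases and Ciita overlapped Dexi by 25888 bases. H2-Eb1 overlapped the antisense gene Gm20513 by 2204 bases, and H2-DMa overlapped CR974462.3 by 591 bases on its own strand, which counting by strand would not separate. The kit kept strand, but whether the counting used it is not given in the sources used here, and without it the reads of such pairs cannot be told apart.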

How the data were processed

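Total RNA (1 ng) from 16 TIL samples was made into stranded, ribosomal RNA-depleted libraries and sequenced as 100-base pairs, per the labels. The deposited values are raw counts per gene that the authors made with STAR and HTSeq on mm10 per their processing notes (versions and strand setting not given in the sources used here), and all 55450 gene identifiers matched GENCODE M21. Here, each comparison used only its own groups in edgeR 4.0.16 (R 4.3.3) with TMM scaling, filterByExpr and the robust quasi-likelihood test, two-sided, with Benjamini-Hochberg adjustment over all genes tested and a threshold of 0.05. Printed CPM are TMM-scaled over 16 libraries. The class II genes and the gene lists were chosen with earlier results of these data known. Named were all 10 genes, Sirt2, 12 defining markers, the called genes of each list or else its most abundant gene, and the 10 genes most like H2-Ab1, of which 1 marker and 1 gene like H2-Ab1 are not reported here. Alternatives used DESeq2 1.42.0, limma 3.58.1, other scalings and filters, covariates, and left-out libraries. The code was tested on simulated data.

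Deviations from the group means were correlated between libraries of equal replicate number over 8635 genes. Between WT CD4+ and CD8+ TILs, r was 0.11, 0.22, 0.11 and 0.15 for replicates 1 to 4. Unequal numbers were not compared and no label states a pairing, so these values do not settle whether the libraries were paired. The reported WT values are from the fit without the block, and the block was run as an alternative. The same r was 0.00083 to 0.15 between CD4+ and CD8+ TILs of Sirt2-/- mice and -0.11 to 0.051 between genotypes. Intervals and floors (3 counts) cover counting error only.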

Additional observations from a re-analysis of the deposited data

Results flagged for a closer look

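In 56 sets of 4 libraries (10 genes and 4 summed marker lists in 4 groups), 7 held a value set apart from the others on Dixon's 95% criterion, which chance meets in about 1 of 20 sets. H2-Aa was at 38.6 CPM in Sirt2-/- CD4+ replicate 4, against 1.19 to 6.95 CPM in the other Sirt2-/- CD4+ libraries. H2-Oa was at 0 CPM in that library, against 1.74 to 2.02 CPM, and the melanoma markers summed to 81.4 CPM there, against 10.3 to 12.2 CPM. The melanoma markers also stood out in WT CD4+ replicate 1, at 100.1 CPM against 5.52 to 14.1 CPM, and in Sirt2-/- CD8+ replicate 4, at 16.2 CPM against 7.75 to 8.67 CPM. H2-Eb1 was at 7.81 CPM in Sirt2-/- CD8+ replicate 4, against 1.72 to 2.43 CPM in the others of its group. H2-Ob was at 13.04 CPM in Sirt2-/- CD8+ replicate 1, against 4.31 to 4.65 CPM. Of the 7 values, 4 were in libraries with under 15000 genes detected. The cause of none of them was tested.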

How the results depend on the processing

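Over other scalings, filters, tools, models, covariates and left-out libraries, 923 of the log2 fold changes of the class II genes kept their direction and side of the threshold, 84 reversed, 13 passed the threshold newly and 3 lost it. Cd74 in WT TILs stayed lower in CD8+ than in CD4+ TILs throughout, and lost its call only with the 3 marker covariates. The cause was not tested for any change below. The number of class II genes called for CD8+ against CD4+ WT TILs was 2 with DESeq2, 2 at an adjusted p below 0.1, 3 with limma-voom, 3 without the libraries of under 15000 genes, and 0 with the macrophage, dendritic cell or B cell covariate. For Sirt2-/- TILs it was 3 with limma-voom and 1 without those libraries. With the replicate block it was 2 in WT TILs. The block also turned H2-Ab1 to -0.65 between genotypes in CD4+ TILs, H2-Oa to 0.24 in WT TILs and H2-Ab1 to 0.21 in Sirt2-/- TILs, and changed no other call than that of H2-Ob in WT TILs.

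The following log2 fold changes reversed. Between genotypes in CD4+ TILs, limma-voom gave H2-Eb1 0.17, H2-DMa 0.13 and H2-Ob 0.19. Leaving out the libraries of under 15000 genes gave H2-Eb1 0.58, H2-DMa 0.18, H2-Oa 0.083 and H2-Ob 0.48. The macrophage covariate gave H2-DMa 2.005, H2-DMb2 1.69, H2-Oa 1.38, H2-Ob 2.805 and Cd74 -0.125, the dendritic cell covariate H2-Eb1 1.72 and H2-DMa 0.50, and the B cell covariate H2-DMa 0.26, H2-Oa 0.11 and H2-Ob 0.089. In CD8+ TILs only H2-Ob reversed, to 0.13 with limma-voom, 0.36 without WT CD8+ replicate 1, 0.24 with the macrophage and 0.16 with the dendritic cell covariate. Between cell types in WT mice, limma-voom gave H2-DMa -0.12 and H2-Oa 0.55, leaving out the libraries of under 15000 genes gave H2-Aa -0.30, H2-DMa -0.0078 and H2-Oa 0.76, and the B cell covariate gave H2-Aa -1.16, H2-Ab1 0.61, H2-DMa -0.46, H2-Oa 2.48 and Ciita 1.26. In Sirt2-/- mice, limma-voom gave H2-DMb1 0.70, leaving out the library of under 15000 genes gave H2-Eb1 -0.13, the macrophage covariate H2-Aa 0.21 and H2-Ab1 0.15, the dendritic cell covariate H2-Ab1 2.895 and Cd74 0.0098, and the B cell covariate H2-Ab1 4.64, H2-DMb1 1.86, H2-DMb2 1.33 and H2-Ob 2.995. The difference in the genotype effect reversed for H2-Ob (-0.066 with limma-voom, -0.12 without the libraries of under 15000 genes, -0.13 with the B cell covariate) and for H2-Aa (0.12 without those libraries).

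Leaving out 1 library at a time, the number of class II genes called ran from 1 to 2 in WT and 0 to 1 in Sirt2-/- TILs (CD8+ against CD4+), with H2-Ob gained without WT CD8+ replicate 1 and H2-Oa without Sirt2-/- CD4+ replicate 4. Between genotypes in CD4+ TILs the ranges that crossed 0 were -0.066 to 0.36 for Cd74, -0.23 to 1.44 for Ciita, -0.61 to 1.155 for H2-Ab1, -0.47 to 0.41 for H2-DMa, -0.85 to 0.31 for H2-DMb2, -1.95 to 0.35 for H2-Eb1 and -1.16 to 0.12 for H2-Ob. In CD8+ TILs it was -0.73 to 0.36 for H2-Ob. Between cell types they were -0.66 to 0.33 for Ciita and -0.42 to 0.64 for H2-Oa in WT mice, and -0.98 to 1.26 for H2-Ab1, -1.54 to 0.14 for H2-DMb1, -0.78 to 0.19 for H2-DMb2 and -0.49 to 2.17 for H2-Eb1 in Sirt2-/- mice. For the difference in the genotype effect it was -0.42 to 1.01 for H2-Ob.

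The correlation of H2-Ab1 with the macrophage markers in CD8+ TILs was 0.947 when WT CD8+ replicate 1 was left out and 0.951 on CPM. In CD4+ TILs it was 0.848 without the libraries of under 15000 genes and 0.355 without the 2 libraries farthest from the median. For the melanoma markers it was 0.127 under either setting in CD4+ TILs and in CD8+ TILs -0.552 without the 2 farthest libraries, 0.838 without the library of under 15000 genes and 0.751 on CPM. For the dendritic cell markers in CD8+ TILs it was 0.142 without the library of under 15000 genes and 0.257 without the 2 farthest. The count of all genes called for Sirt2-/- against WT was 0 in CD4+ TILs (7 with DESeq2, 4 with limma-voom, 6 without the libraries of under 15000 genes) and 1 in CD8+ TILs (28, 4 and 7, with 5 unfiltered, 3 at an adjusted p below 0.1, 4 with the replicate block and 0 with the macrophage covariate). For CD8+ against CD4+ it was 1765 in WT TILs (2651, 5481 and 4394, with 811 in the model of 16 libraries) and 354 in Sirt2-/- TILs (1339, 4474 and 4250, with 616 at an adjusted p below 0.1, 781 in that model, 907 with at least 10 counts in every library and 108 with the replicate block). The macrophage, dendritic cell and B cell covariates left 206, 35 and 8 genes in WT and 350, 3 and 5 in Sirt2-/- TILs. DESeq2 called 2 genes for the difference in the genotype effect, where edgeR called 0. The low count of genes in 3 libraries limits what a 0 shows there.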
